A study of Mus musculus with 32 samples.

Results

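The endoplasmic reticulum (ER) stress genes described here are the chaperones Hspa5, Hsp90b1, Calr, Pdia3, Pdia4 and Sdf2l1, the degradation factor Herpud1, and the transcription factors Xbp1, Atf4 and Ddit3. They were chosen by name, and every probe of the array whose gene symbol was on the list was taken. Of the 10 listed genes, 9 had a probe, among 18138 genes on the array, and they were read by 12 of its 25697 probes. Sdf2l1 had no probe under this symbol and is not analysed here. A probe was tested when it was detected, with a detection p-value below 0.01 against negative control beads, on at least 24 of the 32 arrays, and 11 probes of 8 of these genes passed, among 10187 probes of 7926 genes in all. The dropped probe is that of Hspa5.

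Frontal cortex (FCtx) RNA of 32 female mice was profiled, 1 mouse per array, on Illumina MouseRef-8 v2.0 Expression BeadChips, whose 50-base probes are each carried by many beads. The ethanol group was 20 mice that drank 20% ethanol in limited daily sessions over 20 days and were killed the day after the last session, and the control group was 12 untreated mice. All were F1 hybrids of C57BL/6J and FVB/NJ, and both groups share this background. The labels give the cross as C57BL/6J x FVB/NJ F1, whereas the methods name reciprocal crosses, and no age of the mice is given. The arrays lay on 4 chips of 8, of which chips 1 and 2 carried ethanol-treated mice alone and chip 4 controls alone. Treatments alternated along chip 3, with ethanol at the 4 positions counted as odd (A, C, E, G) and control at the 4 even ones (B, D, F, H). The tissue is a block of dorsal frontal cortex without the olfactory bulbs, so fewer cells of a type and less RNA per cell cannot be told apart in any difference below.

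Proteins that enter the secretory pathway are folded in the ER by chaperones and disulfide isomerases. When unfolded proteins build up, sensors in the ER membrane start the unfolded protein response, in which the transcription factors ATF6, XBP1 and ATF4 raise chaperones, degradation factors and amino acid supply, and prolonged stress raises Ddit3, which encodes the pro-apoptotic factor CHOP. Neurons and glia make large amounts of membrane and secreted protein and keep these chaperones at a steady level.

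Ddit3 was read by a pair of probes at separate places of its transcript on chromosome 10, starting at bases 395 and 513. Their sequences are shown because they were the only probes of the list called when all arrays were compared, and they do not overlap.
Ddit3 probe ILMN_2652909: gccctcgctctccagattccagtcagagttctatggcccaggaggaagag
Ddit3 probe ILMN_2927373: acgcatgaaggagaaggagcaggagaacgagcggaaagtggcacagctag

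The promoters of 3 listed genes also hold the ER stress response element by which ATF6 and XBP1 are known to act, written as CCAAT, 9 bases, CCACG. It was searched on both strands of the 250 bases before each start site in RefSeq promoters of GRCm38.p6, which held all 10 listed genes. The windows below show the element in capitals with 5 bases on each side.
Hspa5, chr2:34772020-34772048, 46 bases before the start: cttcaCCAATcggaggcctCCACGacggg
Calr, chr8:84847070-84847098, 143 bases before the start: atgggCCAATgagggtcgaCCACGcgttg
Hsp90b1, chr10:86705528-86705556, 88 bases before the start: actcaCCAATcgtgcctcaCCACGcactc
Hsp90b1, chr10:86705633-86705661, 193 bases before the start: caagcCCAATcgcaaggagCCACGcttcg

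Each window is written 5′ to 3′ on the strand that carries the element, which is the gene's own strand for Hspa5 and for the Hsp90b1 element farther from the start, and the opposite strand for Calr and the nearer Hsp90b1 element. Of all 32851 promoters searched, 0.113% held the element. The shorter form of it, ATTGG, 1 base, CCACG, was found among the listed genes in Herpud1 alone, 41 bases before the start, and in 0.0304% of all promoters.
Herpud1, chr8:94386372-94386392: cgctgATTGGgCCACGttgga
These matches describe the letters of the windows, and no binding was measured here.

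Between 9480 and 11544 probes were detected per array. The median signal over all probes of an array, before normalization, lay between 166 and 203 in ethanol-treated mice and between 146 and 187 in controls. Control mouse C66, on chip 4, stood apart from the other arrays. Of the markers that define cortical cell types, 9 of 13 for neurons and 10 of 11 for astrocytes were detected on at least 24 arrays. Snap25 and Gfap were not. All levels below are on the log2 scale after a variance-stabilizing transform and quantile normalization, and adjusted p-values are from limma with Benjamini-Hochberg adjustment over all 10187 probes tested. A probe is called at an adjusted p below 0.01, an FDR of 1%, and in the wider range at an adjusted p below 0.10 with at least a 1.1-fold difference.

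When the 20 ethanol-treated mice were compared with the 12 controls, Ddit3 fell and no other listed gene was called in either direction. The calls were 2 of 11 probes, both of Ddit3, where 8.24% of all tested probes were called, and the wider range held the same count against 15.7% of all probes. Of the 11 probes, 2 lay above 0 and 9 below it, with a median difference of -0.06 on the log2 scale beside -0.00335 over all tested probes. Within chip 3, where both treatments shared a chip, 0 of 11 probes were called while 3.2% of all probes were. There 6 of the 11 probes had an unadjusted p below 0.05, as did 2730 of all 10187, and 3 were higher in the wider range, Calr, Hsp90b1 and 1 probe of Herpud1, where 17.1% of all probes were in it. Leaving out each array of chip 3 in turn left 0 to 5 probes in the wider range, with 0 without ethanol-treated mouse A49 and without control C55. The listed probes of chip 3 lay 9 above 0 and 2 below, with a median of 0.20 beside -0.000519 over all probes.

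The remaining arrays allowed a comparison of the 16 ethanol-treated mice on chips 1 and 2 with the 8 controls on chip 4, in which treatment and chip cannot be told apart. In it 3 of 11 probes were called lower, both of Ddit3 and 1 of Herpud1, where 11.8% of all probes were called, and the median over the 11 was -0.14 beside -0.00644. No array of chip 3 enters that comparison, so the difference on chip 3 and the difference between chips were set against each other. All 11 probes were higher on chip 3 by this measure, with a median of 0.25 beside 0.00292 over all probes. In that test 1 of 11 was called, a Herpud1 probe, where 3.48% of all probes were called, and 6 of 11 fell in the wider range, where 16.2% of all probes did. The comparison over all arrays contains both sets of arrays and is no further sample of mice.

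**Figure D1:**
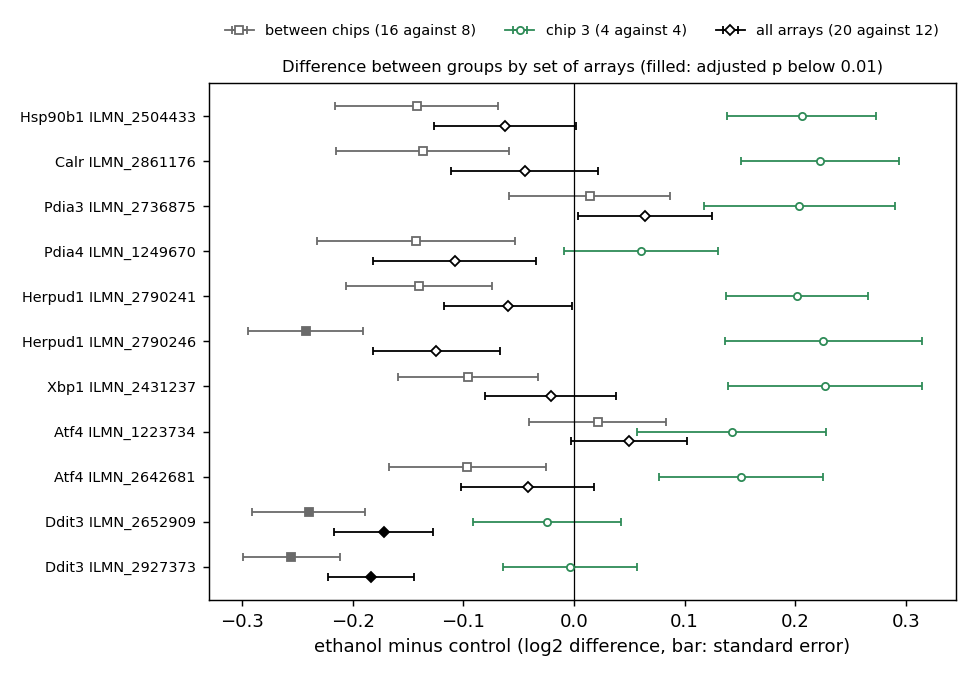
Log2 difference of ethanol-treated mice minus controls (horizontal axis, bars are standard errors) for the 11 tested probes, for 16 against 8 mice between chips, 4 against 4 on chip 3 and 20 against 12 in all. Filled symbols mark an adjusted p below 0.01. Chip 3 values lie right of 0 for 9 probes and between-chip values left of 0 for 9, and both Ddit3 probes lie near 0 on chip 3.

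Ddit3 encodes CHOP, a transcription factor that favours cell death under lasting ER stress. On probe ILMN_2927373 the 20 ethanol-treated mice had a lowest level of 8.09, a median of 8.26 and a highest of 8.42, and the 12 controls had 8.26, 8.42 and 8.60. The ranges overlapped, with 19 of 20 ethanol-treated mice below the control median and 11 below the lowest control. The difference was -0.18 on the log2 scale (SE 0.039, limma adjusted p = 0.0012), which is 1.14-fold lower. On probe ILMN_2652909 the ethanol-treated mice had 8.58, 8.73 and 9.09 and the controls 8.67, 8.96 and 9.05. Here 19 of 20 ethanol-treated mice were again below the control median, 6 were below the lowest control, and 1 on chip 2 was above every control. The difference was -0.17 (SE 0.044, limma adjusted p = 0.00621), or 1.13-fold lower, and without control C66 it had an adjusted p of 0.0141 and was no longer called.

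Within chip 3 the groups did not separate for Ddit3. On probe ILMN_2927373 the 4 ethanol-treated mice stood at 8.25, 8.33, 8.33 and 8.37, and the 4 controls at 8.26, 8.29, 8.35 and 8.40. Their difference was -0.00358 (SE 0.060, limma adjusted p = 0.98), and that of probe ILMN_2652909 was -0.02 (SE 0.067, adjusted p = 0.861). Between chips the differences were -0.26 (SE 0.044, adjusted p = 1.42e-04) and -0.24 (SE 0.051, adjusted p = 0.00115), and the test of chip 3 against between chips gave an adjusted p of 0.037 and of 0.103. With chip as a fixed block in the fit over all arrays, 0 of 11 probes were called, where 0.206% of all probes were. That fit rests on chip 3 by construction.

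The controls themselves differed by chip for Ddit3, though not past the threshold. On probe ILMN_2927373 the 8 controls of chip 4 had a mean of 8.49 ± 0.101 (SD, n = 8) and the 4 controls of chip 3 a mean of 8.32 ± 0.0617 (SD, n = 4), a difference of 0.16 (SE 0.062, limma adjusted p = 0.0981). On ILMN_2652909 the same comparison gave 0.18 (SE 0.059, limma adjusted p = 0.046). Among controls 0 of 11 probes were called, where 4.36% of all probes were, and 3 of the 11 had an unadjusted p below 0.05 beside 2875 of all 10187. Before normalization the mean signals of Ddit3 over all arrays were close. They were 330 in ethanol-treated mice and 327 in controls for ILMN_2927373, and 481 and 469 for ILMN_2652909. By chip, ILMN_2927373 had 327.9 in ethanol-treated mice of chips 1 and 2 and 315.4 in controls of chip 4. On chip 3 it had 338.5 in ethanol-treated mice and 350.7 in controls. ILMN_2652909 had 482.3 and 452.9 between chips, and 474.8 and 502.5 on chip 3. By these means the controls of chip 4 lay lowest before normalization and highest after it. The low place before normalization rests on control C66, which read 226.87 for ILMN_2927373 and 280.17 for ILMN_2652909. The other controls of chip 4 read 306.17 to 354.92 and 414.45 to 524.16. The median over arrays of the median signal of all probes was 184 in ethanol-treated mice and 165 in controls. Under median scaling in place of quantile normalization both probes were still lower in ethanol-treated mice, by -0.12 (adjusted p = 0.0638) and -0.10 (adjusted p = 0.262), and neither was called.

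**Figure D2:**
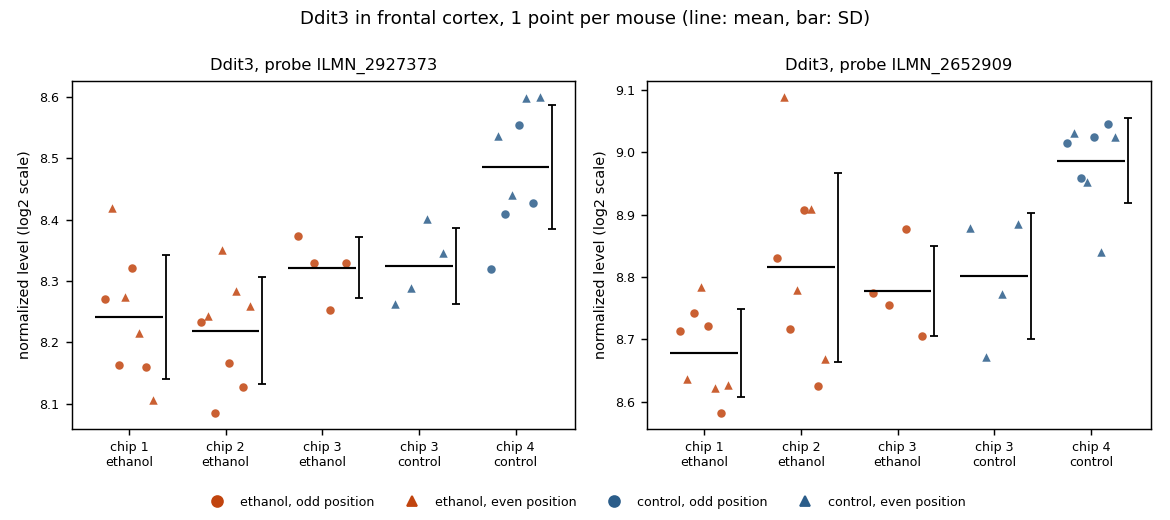
Normalized level (log2 scale) of both Ddit3 probes, 1 point per mouse, by chip and treatment, with circles for odd and triangles for even positions; lines are means and bars SDs. The controls of chip 4 lie highest, with means of 8.49 and 8.99, and the 2 groups of chip 3 overlap.

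Hsp90b1 encodes GRP94, the HSP90-type chaperone of the ER. Over all arrays its levels overlapped, with 10.79, 11.33 and 11.61 as lowest, median and highest in ethanol-treated mice and 11.03, 11.38 and 11.68 in controls, a difference of -0.06 (SE 0.064, limma adjusted p = 0.537). Within chip 3 the ethanol-treated mice stood at 11.44, 11.50, 11.60 and 11.61 and the controls at 11.23, 11.26, 11.41 and 11.42. All 4 ethanol-treated mice were above all 4 controls, by 0.21 (SE 0.068, limma adjusted p = 0.0625).

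Calr encodes calreticulin, a calcium-binding chaperone of glycoproteins. Its levels over all arrays were 8.34, 8.82 and 9.14 in ethanol-treated mice and 8.56, 8.82 and 9.11 in controls, with a difference of -0.04 (SE 0.066, limma adjusted p = 0.687). Within that chip the ethanol-treated mice stood at 8.87, 8.89, 9.01 and 9.05 and the controls at 8.56, 8.74, 8.79 and 8.84, again without overlap, and the difference was 0.22 (SE 0.072, limma adjusted p = 0.0582). Hsp90b1, Calr and 1 probe of Herpud1 were the 3 of 11 probes whose chip 3 groups did not overlap with ethanol higher, as was the case for 7.58% of all tested probes, and none of the 11 was lower without overlap.

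Pdia3 and Pdia4 encode protein disulfide isomerases, which form and rearrange disulfide bonds in the ER. Pdia3 had levels of 10.62, 11.01 and 11.37 in ethanol-treated mice and 10.74, 10.88 and 11.14 in controls, a difference of 0.06 (SE 0.061, limma adjusted p = 0.492). Pdia4 had 8.30, 8.78 and 9.17 against 8.56, 8.88 and 9.02, a difference of -0.11 (SE 0.073, adjusted p = 0.322). For Pdia4 the SD over ethanol-treated mice was 0.26 and over controls 0.12, with 5 ethanol-treated mice below and 4 above every control. On chip 3 Pdia3 differed by 0.20 (SE 0.086, adjusted p = 0.142) and Pdia4 by 0.06 (SE 0.070, adjusted p = 0.629), with overlap of the groups in both.

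Hspa5 encodes BiP, the HSP70-type chaperone that also holds the sensors of the response inactive. Its probe was dim, with a mean signal of 187 in ethanol-treated mice and 171 in controls, and was detected in 5 of 20 and 3 of 12 of them. With all 25697 probes admitted, its difference was -0.03 (SE 0.039, limma adjusted p = 0.76). At this brightness neither a change nor its absence could be read from the probe, and the element in the Hspa5 promoter shown above has no expression value beside it here.

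Herpud1 encodes a membrane protein of the machinery that sends misfolded ER proteins to degradation. Both of its probes, which correlated with r = 0.709 over the 32 arrays, lay lower in ethanol-treated mice between chips and higher on chip 3. On probe ILMN_2790246 the 16 ethanol-treated mice of chips 1 and 2 had a lowest level of 10.31, a median of 10.53 and a highest of 10.78, and the 8 controls of chip 4 had 10.61, 10.76 and 10.90. Of the 16, 12 were below the lowest control, and the difference was -0.24 (SE 0.052, limma adjusted p = 0.00114). The same probe on chip 3 read 10.74, 10.80, 10.81 and 10.87 in ethanol-treated mice and 10.38, 10.44, 10.63 and 10.88 in controls, of which 1 control lay above all ethanol-treated mice. That difference was 0.23 (SE 0.089, limma adjusted p = 0.116).

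For this Herpud1 probe the difference on chip 3 exceeded that between chips by 0.47 (SE 0.096, limma adjusted p = 0.00212), the call named above. The other Herpud1 probe, ILMN_2790241, gave 0.34 (SE 0.097, adjusted p = 0.0204) by the same test. On chip 3 it read 11.47, 11.51, 11.55 and 11.58 in ethanol-treated mice and 11.25, 11.28, 11.30 and 11.47 in controls, with no overlap and a difference of 0.20 (SE 0.064, adjusted p = 0.0547). Over all arrays the opposite differences left -0.12 (SE 0.057, adjusted p = 0.127) for ILMN_2790246 and -0.06 (SE 0.058, adjusted p = 0.509) for ILMN_2790241.

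Xbp1 encodes a transcription factor that becomes active when its mRNA is spliced in the cytoplasm under ER stress. The single probe reads the level of the gene and not this splicing. Its levels were 11.27, 11.50 and 11.85 in ethanol-treated mice and 11.24, 11.60 and 11.69 in controls, a difference of -0.02 (SE 0.059, limma adjusted p = 0.843), although 7 ethanol-treated mice were above every control. On chip 3 the difference was 0.23 (SE 0.087, adjusted p = 0.107), between chips it was -0.10 (SE 0.063, adjusted p = 0.287), and the test of one against the other gave 0.32 (SE 0.10, adjusted p = 0.0362).

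Of the listed genes, Xbp1 had the lowest p between chips 1 and 2, which held the same treatment. The ethanol-treated mice of chip 1 had a mean of 11.36 ± 0.07 (SD, n = 8) and those of chip 2 a mean of 11.62 ± 0.16 (SD, n = 8), a difference of 0.25 (SE 0.060, limma adjusted p = 0.050). The controls of chip 4 lay between them for Xbp1, with a mean of 11.59 ± 0.0912 (SD, n = 8). The lower Xbp1 level between chips was thus that of chip 1 and not of chip 2. Herpud1 probe ILMN_2790241 followed with 0.25 (SE 0.066, limma adjusted p = 0.0789). Between these chips 0 of 11 probes were called, where 0.00982% of all probes were. An unadjusted p below 0.05 was found for 6 of the 11 and for 1520 of all 10187. When the ethanol-treated mice of chips 1 and 2 were compared with those of chip 3, all 11 probes lay lower and 0 were called, 7 with an unadjusted p below 0.05. The share called was 0% of all probes there, of which 877 had an unadjusted p below 0.05.

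Atf4 encodes the transcription factor that is translated more when eIF2α is phosphorylated, and its activity therefore need not follow its mRNA. Probe ILMN_2642681 had levels of 10.44, 10.88 and 11.20 in ethanol-treated mice and 10.59, 10.95 and 11.13 in controls, and differed by -0.04 (SE 0.060, limma adjusted p = 0.674). Probe ILMN_1223734 had 8.97, 9.29 and 9.51 against 8.93, 9.15 and 9.40 and differed by 0.05 (SE 0.052, adjusted p = 0.547). On chip 3 both were higher in the ethanol-treated mice by 0.15 (SE 0.074, adjusted p = 0.204) and 0.14 (SE 0.085, adjusted p = 0.305), with overlap. These Atf4 probes correlated with r = -0.00998 over the 32 arrays, and the Ddit3 probes with r = 0.542.

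**Figure D3:**
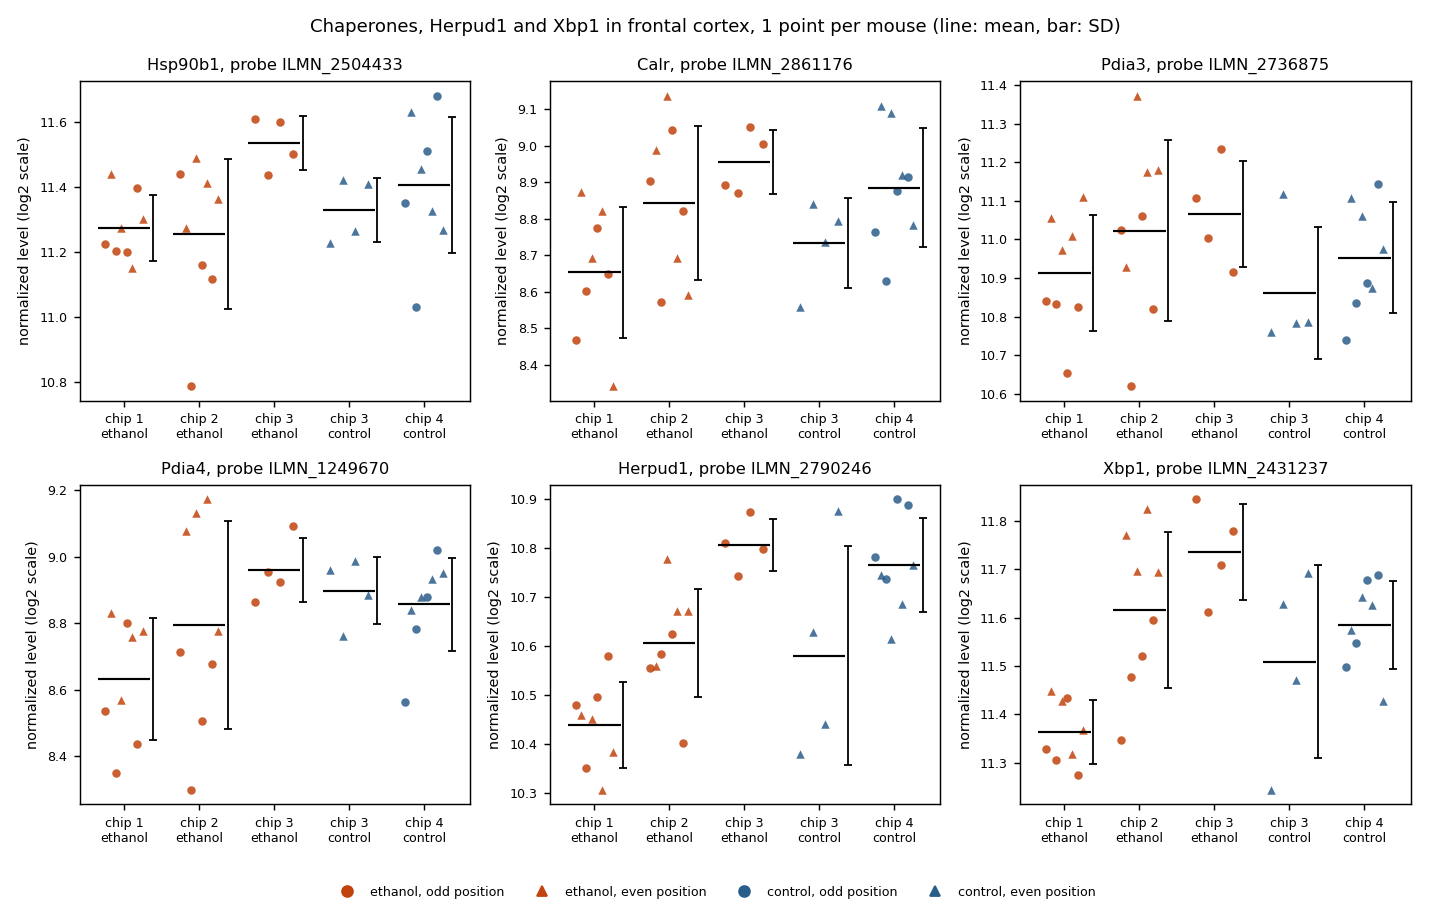
Normalized level (log2 scale) of Hsp90b1, Calr, Pdia3, Pdia4, Herpud1 (ILMN_2790246) and Xbp1, 1 point per mouse, by chip and treatment, with circles for odd and triangles for even positions; lines are means and bars SDs. Ethanol-treated mice of chip 3 lie above all its controls for Hsp90b1 and Calr, and chip 1 holds the lowest means of Calr, Pdia4, Herpud1 and Xbp1.

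On chip 3 treatment and position cannot be told apart, since ethanol-treated mice were at odd and controls at even positions. On the other chips, where each chip held 1 treatment, odd positions were compared with even ones with chip as a block. The listed probes lay mostly lower at odd positions, 9 of 11, the opposite of chip 3, with a median of -0.09 beside -0.002 over all probes. This depended on the scaling, since under median scaling 5 of the 11 lay above 0 and 6 below, and 0 of all tested probes were called. None of the 11 was called, where 3.72% of all probes were, and 4 had an unadjusted p below 0.05 beside 2901 of all 10187. In the wider range were 2 probes, Pdia3 and Pdia4, against 13.5% of all probes. Pdia3 had 10.62, 10.84 and 11.15 as lowest, median and highest at 12 odd positions and 10.88, 11.06 and 11.37 at 12 even ones, a difference of -0.21 (SE 0.055, limma adjusted p = 0.0127). Pdia4 had 8.30, 8.62 and 9.02 against 8.57, 8.86 and 9.17, a difference of -0.26 (SE 0.066, limma adjusted p = 0.0111). With odd or even position in the model, the difference of Herpud1 probe ILMN_2790246 on chip 3 against between chips was 0.44 (SE 0.11, limma adjusted p = 0.016), close to the 0.47 without it but no longer called. In that fit 0 of 11 probes were called, where 0.766% of all probes were, and all 11 stayed above 0. The wider range held 8 of the 11 in place of 6, and 725 of all 10187 probes in place of 1655.

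Some markers of other cells differed between the groups of chip 3. The summed normalized level of 11 astrocyte markers was 34760 to 38030 in its ethanol-treated mice and 29690 to 32840 in its controls. Gene by gene they were mixed, with 6 of 10 tested genes above 0 and 4 below. Their median was 0.047 on the log2 scale, and 3 were called higher. The sum of 11 olfactory bulb markers was 6567 to 7691 in the ethanol-treated mice and 4319 to 5726 in the controls. Of all 7926 tested genes, 4069 lay above 0 on chip 3 and 3857 below, and 1.82% had a probe called higher and 2.08% lower. Olfactory bulb markers had 8 of 8 tested genes above 0 on chip 3, with 4 called higher, although Eomes, Dlx2 and Tbx21 were not detected on at least 24 arrays. Oligodendrocyte markers moved the other way, with 10 of 10 tested genes below 0, a median of -0.40 on the log2 scale and 3 called lower, while their sums overlapped at 24350 to 29420 and 27210 to 44850. The 1 tested marker of 7 for choroid plexus was called higher by 0.35, the sums over the 7 being 1341 to 1396 and 1227 to 1302, and Ttr was not detected on at least 24 arrays. Neuronal sums overlapped, at 55430 to 57340 and 54580 to 58570, with 2 of 9 tested genes called higher and 2 lower. Over all arrays the astrocyte sums were 31640 to 38030 in ethanol-treated mice and 29690 to 39670 in controls. At odd against even positions of the other chips, olfactory bulb markers also had 8 of 8 tested genes above 0. Their median was 0.279 there, beside 0.383 on chip 3. Oligodendrocyte markers had 8 of 10 below 0 at odd positions, with a median of -0.154, and astrocyte markers had 5 above and 5 below. Treatment and position cannot be told apart for the markers of chip 3 either. The part of these markers in the differences of the listed genes was not tested.

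The 8 tested genes were also compared with each other over the 32 mice, each by its brightest probe, after the values were centred within chip, treatment and odd or even position. Of the 28 pairs, 26 correlated above 0, and the median r was 0.281 beside -0.000383 over all pairs of the 7926 tested genes. Hsp90b1 and Pdia3 correlated most, with Pearson's r = 0.681 (permutation p = 3.7e-04, adjusted over the 28 pairs 0.0104) and Spearman's rho = 0.702 (permutation p = 1.6e-04, adjusted 0.00448). Without the 2 mice farthest from the median of Hsp90b1, r was 0.714. This was the only pair past an adjusted p of 0.05 by Pearson's r. Herpud1 followed with Hsp90b1 at r = 0.60 and rho = 0.581 (permutation p = 0.00609 and 0.00307, adjusted 0.0583 and 0.043), and Calr with Hsp90b1 at r = 0.509 and rho = 0.475 (permutation p = 0.00625 and 0.0169, adjusted 0.0583 and 0.149). Among pairs of Ddit3, r was 0.298 with Herpud1, 0.287 with Atf4, 0.237 with Calr and 0.139 with Pdia4. It was 0.0958 with Hsp90b1, -0.0457 with Pdia3 and -0.0528 with Xbp1, and none of these pairs passed.

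The genes most like each listed gene on these centred values, named below, were all outside the pathway lists. Of 7918 other genes, Dok3 was most like Herpud1 (r = 0.808), Eif4a2 most like Hsp90b1 (r = 0.78) and Dusp28 most like Pdia3 (r = 0.744). Nap1l1 was nearest to Calr (r = 0.699), Itpk1 to Atf4 (r = 0.696), Taf12 to Xbp1 (r = 0.681), Atp5f1 to Pdia4 (r = 0.655) and Wisp1 to Ddit3 (r = 0.636). They were picked as the highest of many over 32 arrays, and carry no test. RNA quality per array is not given in the labels, and differences in it were not removed. Hspa5 was not tested and has no such neighbours.

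**Figure D4:**
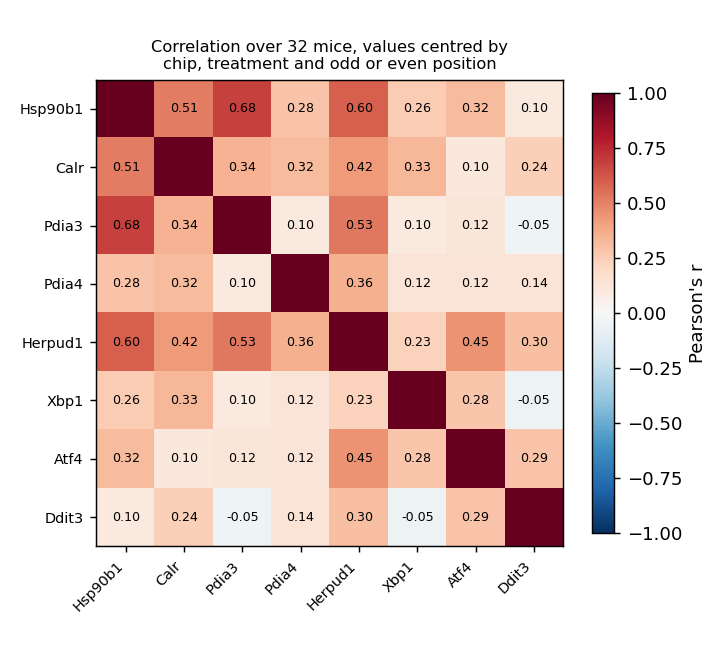
Pearson's r for the 28 pairs of the 8 tested genes over 32 mice, after centring within chip, treatment and odd or even position (colour from -1 to 1). Hsp90b1 with Pdia3 is the highest at 0.681, and Ddit3 with Xbp1 the lowest at -0.0528.

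The other genes of the pathway were read from lists. Of 23 tested targets of Atf4 and Ddit3, 4 were higher and 2 lower over all arrays, where 4.1% of all 7926 tested genes had a probe called higher and 5.77% one called lower, and the median difference was -0.03 beside -0.00721. Those higher were Phgdh, which starts serine synthesis, Slc7a11, the cystine transporter, Wars, a tRNA synthetase, and Vldlr, a lipoprotein receptor. Phgdh rose by 0.22 on the log2 scale (SE 0.050, limma adjusted p = 0.00223) and Slc7a11 by 0.22 (SE 0.053, adjusted p = 0.00408), and under median scaling Phgdh was the only gene of this list still called (adjusted p = 0.00786). Those lower were Gadd45a, a growth arrest gene (-0.20, SE 0.055, adjusted p = 0.00942), and Ddit4, an inhibitor of mTORC1 signalling.

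Ddit4 lay lower in each set of arrays. Its difference was -0.32 over all arrays (SE 0.060, limma adjusted p = 3.68e-04), -0.28 between chips (SE 0.067, adjusted p = 0.00263) and -0.37 on chip 3 (SE 0.096, adjusted p = 0.0242). Slc7a11 lay higher in each, by 0.18 between chips (SE 0.065, adjusted p = 0.0455) and 0.33 on chip 3 (SE 0.075, adjusted p = 0.0118). Both also differed in the same direction at odd against even positions of the other chips, Ddit4 by -0.15 (SE 0.057, adjusted p = 0.0839) and Slc7a11 by 0.16 (SE 0.054, adjusted p = 0.0465). Gadd45a followed the pattern of Ddit3, with -0.28 between chips (SE 0.064, adjusted p = 0.0023) and 0.00407 on chip 3 (SE 0.073, adjusted p = 0.981). Phgdh was higher by 0.27 between chips (SE 0.061, adjusted p = 0.0017) and differed by 0.11 on chip 3 (SE 0.066, adjusted p = 0.298). On chip 3 none of the 23 targets was called, where 1.82% of all genes had a probe called higher and 2.08% lower. An unadjusted p below 0.05 was found there for 9 of the 23, or 39.1%, beside 30.9% of all genes.

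Of 39 other chaperones and folding enzymes with a probe, 25 were tested. Hyou1, Canx, Pdia5 and Manf were among those not tested, and Dnajb11 had no matched probe. None of the 25 was called over all arrays or on chip 3. Over all arrays 8 of them, or 32%, had an unadjusted p below 0.05, beside 35.9% of all genes, and on chip 3 the share was 9 of 25, or 36%, beside 30.9%. The lowest p-values over all arrays were those of Dnajc10, a reductase of the ER, at 0.11 (SE 0.031, limma adjusted p = 0.0124), and Sil1, the exchange factor of BiP, at -0.14 (SE 0.045, adjusted p = 0.0221). Between chips 1 was higher and 4 were lower, where 6.57% of all genes had a probe called higher and 7.19% lower. The 4 were Creld2, Txndc5, Prkcsh and Sdf2, of which Creld2, a known target of the response, fell by 0.38 on the log2 scale (SE 0.066, adjusted p = 1.54e-04), and the 1 higher was Ganab, a glucosidase.

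Of 20 tested degradation genes, Sel1l, the partner of the ER ubiquitin ligase, was called higher over all arrays by 0.32 (SE 0.064, limma adjusted p = 7.55e-04) and none lower, where 4.1% of all genes had a probe called higher and 5.77% lower. The difference of Sel1l was 0.50 between chips (SE 0.057, adjusted p = 1.08e-06) and -0.10 on chip 3 (SE 0.068, adjusted p = 0.406), and the test of one against the other gave -0.60 (SE 0.10, adjusted p = 6.08e-04). On chip 3, 0 of the 20 were called and 7 had an unadjusted p below 0.05, or 35% beside 30.9% of all genes. The sensors Ern1, Atf6 and Eif2ak3 were not tested. Ern1 was not detected on at least 24 arrays, and Atf6 and Eif2ak3 had no matched probe. Among the 5 tested sensors and transducers, Atf6b, Bax, Mbtps1, Nfe2l1 and Tmbim6, none was called over all arrays. Of them 2 had an unadjusted p below 0.05, Nfe2l1 and Tmbim6. On chip 3 Mbtps1, the protease that releases ATF6, was called lower by -0.38 (SE 0.067, adjusted p = 0.00256). There 2.08% of all genes had a probe called lower. Of the 5 sensors and transducers, 3 lay above 0 on chip 3 and 2 below. An unadjusted p below 0.05 was found there for 4 of them, or 80% beside 30.9% of all genes.

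Of 27 genes for entry into the ER, 2 were higher and 4 lower over all arrays, against the same 4.1% and 5.77% of all genes. Higher were Srp54, the GTPase of the signal recognition particle, at 0.40 (SE 0.087, limma adjusted p = 0.00153), and Spcs3 of the signal peptidase. Lower were Srp9, Ddost, Spcs1 and Sec61b, a subunit of the translocation channel, between -0.15 and -0.19. All 4 stayed below 0 under median scaling with no call, and both that were higher stayed called. Srp54 was 0.62 between chips (SE 0.076, adjusted p = 2.27e-06) but -0.04 on chip 3 (SE 0.078, adjusted p = 0.764), and the test of one against the other was called, at -0.67 (SE 0.14, adjusted p = 0.00212). Spcs3 was 0.31 between chips (SE 0.054, adjusted p = 1.70e-04) and 0.01 on chip 3 (SE 0.080, adjusted p = 0.956). The 4 lower genes lay between -0.12 and -0.02 on chip 3. None of the 27 was called there, and 6 had an unadjusted p below 0.05, or 22.2% beside 30.9% of all genes. Of 20 cytosolic heat shock genes, 2 had a probe called higher and 1 a probe called lower over all arrays, beside 4.1% and 5.77% of all genes, namely Hspa8 and Hsp90ab1 higher and another probe of Hsp90ab1 lower. The lower call was lost under log2 in place of the transform, normexp and median scaling. Hspa8 was 0.86 between chips (SE 0.15, limma adjusted p = 1.09e-04) but 0.07 on chip 3 (SE 0.089, adjusted p = 0.664), and it was lower at odd positions by -0.41 (SE 0.098, adjusted p = 0.00794). Hsp90ab1 probe ILMN_1246650 was 0.70 between chips (SE 0.097, adjusted p = 9.27e-06) and 0.01 on chip 3 (SE 0.072, adjusted p = 0.933). Probe ILMN_1233733 was also higher between chips, by 0.74 (SE 0.13, adjusted p = 1.67e-04). The probe called lower, ILMN_1238221, was brighter, with a level of 13.19 beside 11.19 for ILMN_1233733 and 10.43 for ILMN_1246650. It was -0.15 between chips (SE 0.040, adjusted p = 0.00783) and -0.04 on chip 3 (SE 0.059, adjusted p = 0.743), so the probes of Hsp90ab1 disagreed in direction between chips. On chip 3 Chordc1, a cochaperone of HSP90, was the 1 called, higher, where 1.82% of all genes had a probe called higher. An unadjusted p below 0.05 was found there for 6 of these 20 genes, or 30% beside 30.9% of all genes.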

How the data were processed

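A non-normalized table was used. For each array the authors deposited the intensity of every probe on a linear scale and its detection p-value. Deposited with them were other values, how many beads carried the probe and their standard error. The 128 columns of the table were matched to 32 mice through the labels, and 0 columns were left without a sample. The submitters' processing notes name lumi and limma. The image software is not given in the sources used here. lumi was not used here, so its variance-stabilizing transform was rewritten from the bead standard errors, and quantile normalization followed. This was done with limma 3.58.1 and data.table (version 1.17.8) under R 4.3.3. The probes detected per array (9480 to 11544) and the number of arrays limit the precision. On the log2 scale, the median SD within groups was 0.123 for tested probes and 0.172 for the listed ones.

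Groups were compared by limma with no covariate, after the study's methods, over all arrays, on chip 3, and between chips. The test of chip 3 against between chips was fitted over all arrays with a mean per chip and treatment. The mice are separate animals, each with its own array. RNA was extracted in batches that held both groups, and the labels do not say which array belongs to which batch. Correlations used 100000 permutations within chip, treatment and position class, two-sided (numpy 2.4.6, scipy 1.17.1, pandas 2.3.3 and, for figures, matplotlib 3.10.9, under Python 3.11.15). The transform, the limma fits and the permutation test were tested on simulated data. All listed probes are named. A pathway list is given by its counts, and the genes of up to 4 called probes per direction with the lowest p over all arrays are named, or 2 where none was called. Other called genes (Vldlr, Creld2, Txndc5, Prkcsh, Sdf2, Ganab, Mbtps1, Chordc1) were named after their values were seen. The members and lists were chosen with earlier results of these data known. Older symbols in the file were matched through RefSeq gene names.

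The alternatives were log2 in place of the transform, normexp (offset 16) for background, scaling to the median, use of all probes, probes detected on all arrays, array weights, the wider call, chip as a fixed or random block, odd or even position, leaving out C66 or each array of chip 3, and for correlations uncentred values. The comparisons of chips that share a treatment were added after the data were seen.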

Additional observations from a re-analysis of the deposited data

Results flagged for a closer look

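The ethanol-minus-control difference of chip 3 and that between chips were unequal for Herpud1 probe ILMN_2790246, by 0.468 on the log2 scale with all 32 arrays in the fit. In the same test Sel1l differed by -0.60. Of 55 sets of 4 or 8 mice of 1 chip and treatment that were examined for a single distant mouse, over the 11 probes, 3 held one, and chance alone gives about 1 in 20. On chip 3 ethanol-treated mouse A46 stood at 9.167 for Atf4 probe ILMN_1223734, the next at 9.35. On chip 4 control C65 stood at 8.84 for Ddit3 probe ILMN_2652909, the next at 8.952. On chip 3 control C54 stood at 11.12 for Pdia3, the next at 10.79.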

How the results depend on the processing

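Over all arrays the 2 calls, both Ddit3 probes, fell to 0 under median scaling, with chip as a fixed or random block, and with a fixed chip block plus position, and to 1 with all probes or without mouse C66, where ILMN_2652909 had an adjusted p of 0.0141. Over all probes median scaling left 139 higher and 18 lower calls, in place of 366 and 473, and put the median difference of all probes at 0.0469. The 839 calls became 157 under median scaling, 21 with chip as a fixed block, 79 as a random block and 2 with position added. On chip 3 the 326 calls became 0 after normexp and 120 to 396 without 1 array, between chips 1201 became 589 under median scaling (577 higher and 12 lower), for chip 3 against between chips 355 became 78 with position, and for positions 379 became 0 under median scaling. On chip 3 the count of 0 became 3 in the wider range and was 0 to 0 when each of its arrays was left out, and without an array 0 to 5 probes were in the wider range. Between chips the 3 calls fell to 0 under median scaling. For chip 3 against between chips, the 1 call fell to 0 with odd or even position in the model. Herpud1 ILMN_2790246 then stood at 0.44 (limma adjusted p = 0.016) in place of 0.47. The listed probes in the wider range went from 6 to 8, while those among all probes went from 1655 to 725. The 1 correlated pair became 18 of 28 without centring and 18 under median scaling.

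Several small differences, given for the brightest probe of each gene, changed sign. Under median scaling they became, over all arrays, 0.03125 (Atf4), 0.02322 (Calr), 0.006175 (Herpud1), 0.005055 (Hsp90b1) and 0.04633 (Xbp1), between chips 0.01894 (Atf4) and 0.02178 (Xbp1), and by position 0.02978 (Ddit3), 0.04478 (Herpud1) and 0.008546 (Xbp1). With chip as a fixed block they became 0.151 (Atf4), 0.2225 (Calr), 0.2018 (Herpud1), 0.2057 (Hsp90b1), 0.06085 (Pdia4) and 0.2269 (Xbp1), all resting on chip 3 by construction. With position added they became 0.06915 (Atf4), 0.3076 (Calr), 0.2459 (Herpud1), 0.3128 (Hsp90b1), 0.3218 (Pdia4) and 0.3209 (Xbp1), and with chip as a random block 0.000288 (Atf4), 0.01376 (Calr) and 0.03302 (Xbp1). Ddit3 on chip 3 ranged from -0.0676 to 0.003458 without 1 array, with 0.001447 without control C52. Apart from the construction of the fixed block, the cause was not tested. The 4 against 4 mice of chip 3 limit what could be called there. No paired analysis was possible because the groups share no mouse numbers.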
